A study of Mus musculus and Mus musculus
Oryx dammah with 30 samples.

Results

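The 7 transcripts described here, *Olfr373*, *Osbpl7*, *Jak3*, *Retn*, *Cfap70*, *Gm43684* and *C730034F03Rik*, were chosen by their read values under α-amanitin, a mushroom toxin that stops RNA polymerase II (Pol II). The choice was made on nuclear transfer (NT) embryos that had received C2C12 cells: a member was to have more reads in every amanitin library than in any untreated library, and the two-cell experiment was then consulted as a check. They were found by exact gene name among the 53023 entries of the C2C12 table, and each name matched 1 entry. Because the C2C12 values chose them, those values are given below as a description and were not tested, and the two-cell results are no independent support.

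C2C12, the donor, is an established myoblast line of the C3H strain. In the main experiment, 2 such cells were fused with each four-cell embryo of C57BL/6 oocytes and DBA/2 sperm, held before division with 0.1 μg/mL demecolcine, at 46 h post insemination (hpi), and kept in culture for 24 h, either in α-amanitin or untreated (3 libraries per group, each from a pool of 3 embryos). The two-cell experiment used the same strains, donor line and demecolcine dose with two-cell recipients, transferred at 21 hpi (early) or 30 hpi (late), again for 24 h (6 libraries with and 6 without α-amanitin, pools of 5 embryos). The replication experiment compared 3 libraries of the group D with 3 of the group DR, four-cell NT embryos transferred before or after the DNA replication of that stage, all without α-amanitin, in pools of 4 embryos. The labels do not spell out which letters mark which time. All groups carried demecolcine, every library held both embryo and donor transcripts, and no library of untransferred embryos or of donor cells alone was analysed here, so a transcript could not be assigned to either source from these tables. Libraries are called by their column names. Those of the two-cell table form a set named NT (untreated) with Am (amanitin) and a set named R (untreated) with RAm (amanitin), and which set had early recipients is not given by the names.

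Pol II transcribes protein-coding genes and most long noncoding RNAs. α-Amanitin binds this enzyme and stops elongation, while mRNA already present, such as the stores an oocyte lays down, stays until it is degraded. Values were FPKM, fragments per kilobase of exon scaled to the fragments counted in the library, which are shares of a library: they show how large a part of the counted RNA a transcript was, not how many molecules an embryo held. In pooled embryos, fewer cells that hold a transcript and less of it per cell cannot be told apart.

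The members belong to no common pathway. *Olfr373* encodes an olfactory receptor, a G-protein-coupled receptor of the family known from sensory neurons of the nose. *Jak3* encodes a tyrosine kinase that binds the common cytokine receptor chain IL2RG and is known from lymphocytes. *Retn* encodes resistin, a small secreted protein known from mouse adipose tissue. *Osbpl7* encodes a member of the oxysterol-binding protein family, which bind and move lipids between membranes. *Cfap70* encodes a protein of motile cilia and sperm flagella. *Gm43684* is a TEC locus, the GENCODE class for regions with transcript evidence that still await experimental proof, and *C730034F03Rik* is a small gene of unknown function.

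By GENCODE vM21 (mm10), 3 of the 7 members lay on chromosome 8: *Retn* (chr8:3655770-3660110), *Jak3* (chr8:71676296-71690575) and *Olfr373* (chr8:72083177-72103084), all on the plus strand. *Osbpl7* was at chr11:97050628-97068904, *Gm43684* at chr5:122779525-122786097 and *C730034F03Rik* at chr15:89429589-89430868, also on the plus strand, and *Cfap70* at chr14:20394193-20452226 on the minus strand. *Gm43684* and *C730034F03Rik* are annotated as single exons, of 6573 and 1280 bases. The others had 3 (*Olfr373*) to 31 (*Cfap70*) separate exon blocks and 1579 (*Retn*) to 5920 (*Osbpl7*) exonic bases. The tables name *C730034F03Rik* as protein coding in the C2C12 and replication experiments and as a bidirectional-promoter lncRNA in the two-cell experiment.

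Since α-amanitin acts on transcription, the bases just before the annotated starts are shown where the RefSeq promoter table (GRCm38.p6) gives more than 100 of them outside the annotated gene. RefSeq promoters were found for 6 of the 7 members, and those of 4 are printed, 5′ to 3′ on the gene's strand. Capitals mark matches to GGGCGG (GC box) or CCAAT on either strand. TATAAA and the E-box CACGTG were also searched, on both strands, and had no match in these windows.
C730034F03Rik, chr15:89429273-89429522, plus strand: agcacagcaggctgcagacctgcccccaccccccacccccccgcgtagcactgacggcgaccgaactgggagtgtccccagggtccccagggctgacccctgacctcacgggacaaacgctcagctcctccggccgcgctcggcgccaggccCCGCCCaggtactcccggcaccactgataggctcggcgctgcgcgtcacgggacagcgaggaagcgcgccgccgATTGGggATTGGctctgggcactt
Jak3, chr8:71676133-71676295, plus strand: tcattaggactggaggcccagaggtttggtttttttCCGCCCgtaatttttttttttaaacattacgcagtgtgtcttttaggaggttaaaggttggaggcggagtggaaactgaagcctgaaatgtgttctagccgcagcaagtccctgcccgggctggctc
Retn, chr8:3655520-3655769, plus strand: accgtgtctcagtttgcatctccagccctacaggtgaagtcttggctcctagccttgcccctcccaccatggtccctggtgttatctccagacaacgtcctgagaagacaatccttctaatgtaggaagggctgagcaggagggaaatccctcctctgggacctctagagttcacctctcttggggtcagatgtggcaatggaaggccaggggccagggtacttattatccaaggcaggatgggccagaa
Cfap70, chr14:20452227-20452475, minus strand: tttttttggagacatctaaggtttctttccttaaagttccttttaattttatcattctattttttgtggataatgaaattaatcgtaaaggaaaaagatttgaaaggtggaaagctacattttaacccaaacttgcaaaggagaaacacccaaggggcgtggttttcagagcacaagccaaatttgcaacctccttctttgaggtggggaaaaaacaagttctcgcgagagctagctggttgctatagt

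The window of *C730034F03Rik* had 71.6% G or C and 24 CG dinucleotides in 250 bases, against a median of 52.4% and 6 over the 32851 promoters of the table. It held a GC box and 2 CCAAT matches, motifs that 32.7% and 33.8% of all promoters hold in the same 250 bases. It lies within *Chkb*, a choline kinase gene on the opposite strand. The windows of *Retn* (54.8% G or C, 2 CG), *Jak3* (48.5%, 6 CG in 163 bases) and *Cfap70* (36.9%, 4 CG) were poorer in CG than that of *C730034F03Rik*, and of the 4 motifs only a GC box in *Jak3* was matched, which 18.4% of all promoters hold in the same part. None of the 4 motifs was in all 4 windows.

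Library depth was 1136771 to 3101002 reads on genes with and 1829781 to 2278397 without α-amanitin in the C2C12 experiment, 4364336 to 10060473 in the two-cell experiment and 2602780 to 19170641 in the replication experiment. Embryo identity was clear: of 16 oocyte and cleavage-embryo markers, 14 reached an FPKM of 1 in both C2C12 groups, with summed FPKM of 12250 to 16160 with and 8977 to 9981 without α-amanitin. *Dppa3* alone made up nearly all of these sums, at 12110 to 15930 and 8677 to 9870 FPKM. Donor markers summed to 13.1 to 163 FPKM with and 18.2 to 23.2 without α-amanitin, and the highest sum, in library S18, held 95.1 FPKM of the skeletal actin *Acta1*. Of the 18 donor markers, 11 reached an FPKM of 1 with and 5 without α-amanitin, and 2 and 5 were at 0. *Cdh15*, *Myf5* and *Myog* were among those at 0 in the untreated libraries. The myoblast factor *Myod1* had 0 to 7.09 FPKM with and 0.587 to 3.23 without α-amanitin, and *Sparc* 3.75 to 41.7 and 8.57 to 13.9. The C2C12 table lists no spike-ins, so a change shared by all genes could not be seen there. Across its 9884 tested genes (3 or more libraries with an FPKM of 1 or higher) the median log2 change under α-amanitin was −0.37, and −0.13 after median-of-ratios scaling.

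In the C2C12 embryos, all 7 members had higher FPKM in each of the 3 amanitin libraries than in any of the 3 untreated libraries, and all 7 passed the filter on low values. In reads, as the rule is stated, the condition held for 6, while *Retn* had 25 reads both in its lowest amanitin library (S18) and in its highest untreated one (S7). Among all genes tested, 7.56% met the condition in FPKM and 2.01% in reads. By limma, 0.364% of all genes were called higher and 6.2% lower (adjusted p under 0.05 and 4-fold), and 1.13% and 11.1% by adjusted p alone. Since the members were chosen on this contrast, no test of theirs is given. *Gm43684* reached an FPKM of 1 only in the amanitin libraries and *Cfap70* in these and in S15, so both passed the filter through the group in which they were high. Ordered by the lowest amanitin over the highest untreated FPKM, the members ranked 14 (*Gm43684*) to 92 (*C730034F03Rik*) of the 747 genes that met the condition in FPKM, so they are not the first 7. Just inside the limit was *Eif3g*, with a ratio of 1.0002, and just outside was *Zbtb8os*, with 0.9993.

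The receptor gene *Olfr373* had 39.4, 82.6 and 9.57 FPKM in the amanitin libraries S16, S18 and S8, and 2.61, 1.17 and 2.20 in the untreated libraries S15, S17 and S7. Its mean was 43.9 ± 36.7 with and 1.99 ± 0.741 without α-amanitin (SD, n = 3), a ratio of 22.0, or 12.3 without S18. The amanitin libraries themselves differed widely, S18 being the highest and S8 the lowest.

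The kinase gene *Jak3* had 12.9, 27.4 and 34.2 FPKM in S16, S18 and S8, against 3.77, 2.86 and 4.67 in S15, S17 and S7. The means were 24.9 ± 10.9 and 3.77 ± 0.903 (SD, n = 3), a ratio of 6.60. The untreated libraries lay close together, and S16 was the lowest of the amanitin libraries. *Insl3*, a hormone gene that shares the last part of the *Jak3* locus on the same strand, had at most 1.01 FPKM in these libraries.

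*Retn* had 14.7, 13.9 and 22.7 FPKM with α-amanitin (S16, S18, S8) and 1.11, 0.692 and 7.32 without it (S15, S17, S7). The means were 17.1 ± 4.87 and 3.04 ± 3.71 (SD, n = 3), a ratio of 5.63, or 18.98 without S7. Only 2 and 4 reads stood behind the values of S17 and S15, while S7, with 25 reads, was the untreated library nearest to the amanitin group.

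*Osbpl7*, the most abundant member, had 76.5, 137 and 63.4 FPKM with α-amanitin and 7.19, 15.9 and 14.4 without it, in the same library order. The means were 92.3 ± 39.3 and 12.5 ± 4.66 (SD, n = 3), a ratio of 7.38. It rested on 596 to 1404 reads per amanitin library and 97 to 185 per untreated library, the deepest counts among the members.

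*Cfap70* had 6.54, 12.1 and 4.55 FPKM with and 1.23, 0.637 and 0.647 without α-amanitin. The means were 7.73 ± 3.91 and 0.837 ± 0.338 (SD, n = 3), a ratio of 9.23, with 5 to 12 reads in the untreated libraries. S18 was again the highest library and S8 the lowest of the amanitin group, the order seen in *Olfr373* and *Osbpl7*.

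Of the loci without known function, *Gm43684* had 11.3, 4.15 and 4.31 FPKM with α-amanitin and 0.801, 0 and 0.703 without it. Its means were 6.60 ± 4.10 and 0.502 ± 0.437 (SD, n = 3), a ratio of 13.2, or 8.43 without S16, and a count of 0 in S17 allows up to 3 reads. *C730034F03Rik* had 26.7, 107 and 83.6 FPKM with and 8.23, 0.854 and 14.1 without α-amanitin. Its means were 72.3 ± 41.1 and 7.72 ± 6.63 (SD, n = 3), a ratio of 9.36, or 15.9 without S7. S17, with 2 reads, was the lowest untreated library, and S16 the lowest of the amanitin libraries.

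**Figure D1:**
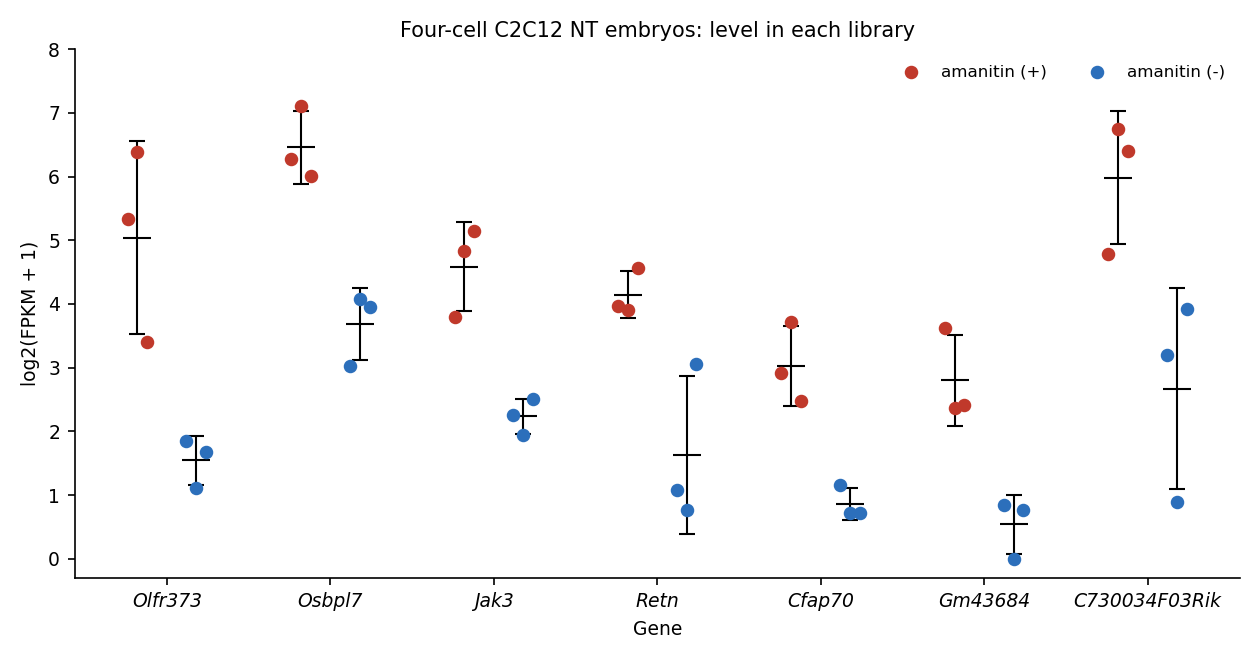
Level of the 7 members in each C2C12 library of four-cell NT embryos, as log2(FPKM + 1), with α-amanitin (red) and without (blue); black bars show the mean and SD of 3 libraries. For each member every red point lies above every blue point, which follows from how the members were chosen, and *Olfr373* and *C730034F03Rik* show the widest spread within a group.

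Markers of the cell types in which these genes are known were low in the C2C12 libraries. Of 7 adipocyte markers, none reached an FPKM of 1, their sum was 0.768 to 1.23 with and 0.823 to 0.915 without α-amanitin, and *Adipoq* and *Lep* were at 0 in both groups, beside the *Retn* values. Of 14 blood and immune markers, 3 reached an FPKM of 1 in each group, the sum was 9.67 to 37.7 with and 9.03 to 15.9 without α-amanitin, and 9 and 8 of the markers were at 0, *Ptprc*, *Cd3g*, *Cd79a*, *Itgam* and *Lyz2* in both. The globin gene *Hba-a1* had 5.42 to 26.4 FPKM with and 1.35 to 5.95 without α-amanitin, ranges that overlapped. Of the other globin genes listed, *Hba-a2* had 0 to 0.484 FPKM with and 0 without α-amanitin. *Hbb-bs* and *Hbb-bt* were also at 0 in both groups. The myeloid factor *Spi1* had 0 to 1.68 FPKM with and 1.89 to 3.65 without α-amanitin. The immune list held *Il2rg*, the receptor chain that JAK3 binds, at 3.69 to 11.3 and 2.75 to 6.62 FPKM. Of 11 sperm and multiciliated cell markers in the table, 1 reached an FPKM of 1 with and 3 without α-amanitin, with sums of 2.71 to 10.1 and 2.60 to 4.81. Cumulus and granulosa markers summed to 16.5 to 33.8 and 15.3 to 17.1 FPKM, with 9 and 11 of 13 at 0. The sums of these 4 lists and of the donor list overlapped between the groups. The part that donor markers, higher in S18 and S8 (163 and 57.0 FPKM) than in S16 (13.1), had in the member values was not tested.

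In the two-cell embryos, *C730034F03Rik* was again higher with α-amanitin, *Retn* and *Cfap70* were lower, and *Osbpl7*, *Olfr373* and *Gm43684* did not pass the test. Of the 7 members, 6 passed the filter on low values. By limma on log2(FPKM + 1), with Benjamini-Hochberg adjustment over 17196 genes, calling genes past 4-fold with an adjusted p below 0.05, 1 member was called higher and 0 were called lower, against 1.58% and 11.1% of all genes tested. By adjusted p alone, 1 member was higher and 2 were lower, against 8.51% and 38.9% of all genes. The median log2 change of all genes was −0.67.

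*C730034F03Rik* had 29.1, 46.8, 6.28, 15.2, 36.9 and 48.2 FPKM in the amanitin libraries Am1 to Am3 and RAm1 to RAm3. Without α-amanitin it had 4.85, 2.08 and 7.29 in NT1 to NT3, 1.08 in R3, 1.86 in r1 and 1.98 in r2. Am3 lay below NT3, and every other amanitin library was above every untreated one. α-Amanitin changed it by 2.81 on the log2 scale (adjusted p = 0.0011, standard error 0.50, limma), the exact permutation test over the 12 libraries gave p = 0.00433 (two-sided), and the means were 30.4 ± 16.99 and 3.19 ± 2.39 FPKM (SD, n = 6).

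*Retn*, by contrast with the C2C12 embryos, had 24.8, 0.849, 2.06, 3.05, 3.83 and 4.91 FPKM with α-amanitin, in the library order given above. Untreated, it had 17.2, 11.9, 16.6, 11.9, 29.8 and 39.7 in NT1, NT2, NT3, R3, r1 and r2. All amanitin libraries but Am1 were below all untreated ones. The fitted difference was −1.99 on the log2 scale (adjusted p = 0.0105, standard error 0.54, limma), with an exact permutation p of 0.0108 (two-sided), and −2.46 (adjusted p = 0.00093) without Am1. The difference did not pass with edgeR (adjusted p = 0.29), with DESeq2 (0.21) or with median-of-ratios scaling (0.084).

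*Cfap70* had 3.61, 3.30, 1.34, 0.666, 0 and 1.00 FPKM with α-amanitin and 3.55, 5.99, 1.89, 6.43, 4.20 and 8.18 without it. The groups overlapped through the Am and NT libraries. It fell by 1.29 on the log2 scale (adjusted p = 0.0191, standard error 0.40, limma), with an exact permutation p of 0.0130 (two-sided). The fall did not pass with edgeR (adjusted p = 0.31), DESeq2 (0.20) or median-of-ratios scaling (0.090).

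*Osbpl7* had 43.6, 1.95, 42.6, 51.8, 70.3 and 27.7 FPKM with α-amanitin and 17.6, 30.4, 40.6, 2.95, 3.54 and 5.02 without it. Am2 was the lowest of all 12 libraries, at 107.5 reads, and of the untreated libraries only NT2 and NT3 were above another amanitin library, RAm3. The difference of 1.31 on the log2 scale did not pass (adjusted p = 0.174, standard error 0.79, limma, exact permutation p = 0.162, two-sided). Without Am2 it was 1.98 (adjusted p = 0.018), and DESeq2 gave 2.23 (adjusted p = 0.027), while edgeR gave 2.28 (adjusted p = 0.068).

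*Olfr373* had 6.00 to 19.2 FPKM with (median 15.6) and 2.06 to 22.6 without α-amanitin (median 18.9) in the two-cell embryos. The difference was 0.03 on the log2 scale (adjusted p = 0.964, standard error 0.50, limma). *Gm43684* had 0.370 to 4.86 FPKM with (median 0.860) and 0.0391 to 3.34 without (median 0.926), and differed by 0.40 on the log2 scale (adjusted p = 0.454, standard error 0.43, limma). For both genes the groups overlapped. *Jak3* stayed under the filter, with at most 0.0793 FPKM with and 0.279 without α-amanitin, on 0.12 to 14.5 reads a library, and had no value of the model.

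**Figure D2:**
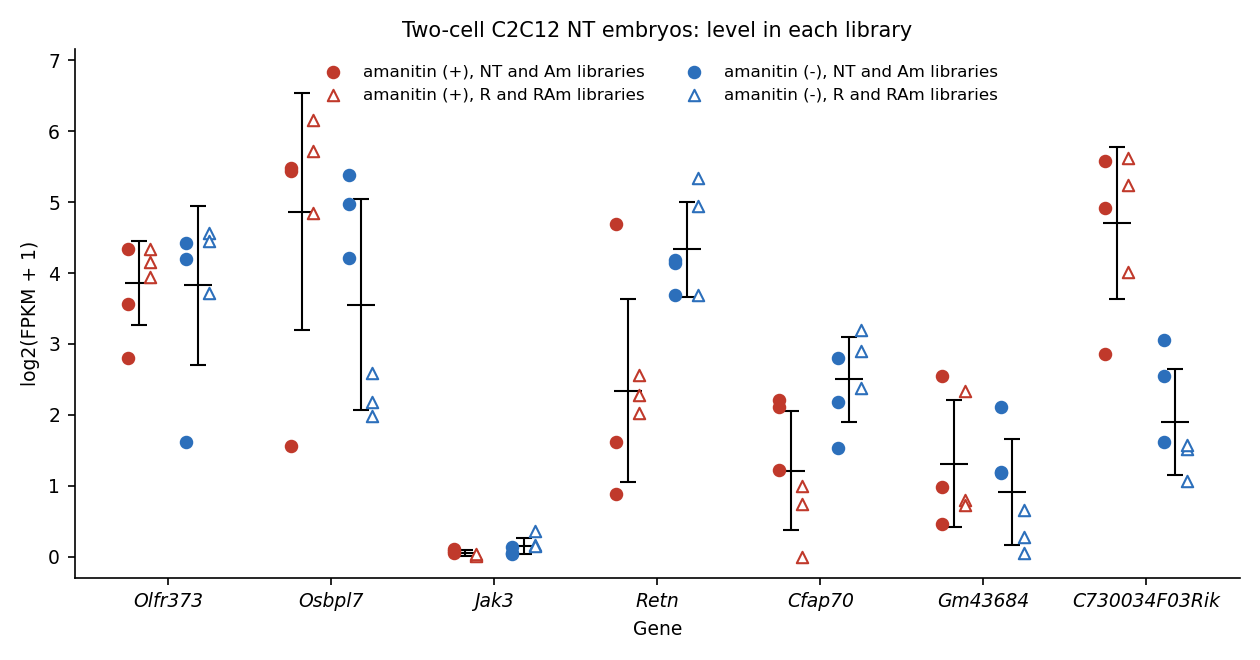
Level of the 7 members in each of the 12 two-cell libraries, as log2(FPKM + 1), with α-amanitin (red) and without (blue), for the NT and Am libraries (filled circles) and the R and RAm libraries (open triangles); black bars show the mean and SD of 6 libraries. The triangles separate by treatment for *C730034F03Rik*, *Osbpl7*, *Retn* and *Cfap70*, while the circles of these genes overlap.

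The 2 sets of two-cell libraries gave different pictures. In the R and RAm libraries alone, *C730034F03Rik* (log2 change 3.58, standard error 0.43, adjusted p = 0.00019) and *Osbpl7* (3.32, 0.37, 0.00013) were higher with α-amanitin by limma, against 16.4% of all genes tested in that set. *Retn* (−2.38, 0.43, 0.0016) and *Cfap70* (−2.24, 0.35, 0.00073) were lower, against 60.5% of all genes. In this set *Cfap70* reached an FPKM of 1 in each untreated library but, with α-amanitin, only in RAm3. It thus passed the filter through the group in which it was high. The range of the 3 amanitin libraries lay above that of the untreated ones for *C730034F03Rik*, *Osbpl7* and, by a ratio of 1.14, *Gm43684*, as for 15% of genes. It lay below for *Retn*, *Cfap70* and *Jak3*, as for 58.1%. With 3 libraries per group, the smallest exact p is 0.1, which all but *Olfr373* reached.

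In the NT and Am libraries alone, none of the 6 members tested passed at an adjusted p under 0.05 by limma, where 4.18% of genes were higher and 12.7% lower. The nearest were *C730034F03Rik* (log2 change 2.04, unadjusted p = 0.018, adjusted p = 0.078) and *Retn* (−1.61, unadjusted p = 0.10, adjusted p = 0.23). *Osbpl7* had a change of −0.69 (standard error 0.97). The ranges of all 7 members overlapped between treatments there, while in 10.4% of genes the amanitin libraries were all above and in 24.7% all below. The difference of the effect between the sets (the interaction term, R and RAm minus NT and Am) was 4.02 for *Osbpl7* (standard error 1.17, adjusted p = 0.0147) and −1.92 for *Cfap70* (standard error 0.58, adjusted p = 0.0174). These 2 of 6 members stand beside 44.5% of all genes, 8.46% with a positive and 36% with a negative term. For *C730034F03Rik* the difference was 1.53 (adjusted p = 0.18) and for *Retn* −0.77 (adjusted p = 0.59). Recipient stage and set of libraries cannot be told apart.

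ERCC spike-ins, synthetic RNAs put into each lysate, were listed in the two-cell table and took 6.54% to 11.3% of counted reads with and 2.38% to 6.26% without α-amanitin. After scaling to the 47 found in all 12 libraries, the median log2 change of all genes was −1.49, and 71.4% of genes were lower and 1.63% higher at an adjusted p under 0.05. *C730034F03Rik* remained higher (log2 change 1.64, standard error 0.51, adjusted p = 0.0082, limma), also in the R and RAm libraries alone (1.95, adjusted p = 0.0027), but not in the NT and Am libraries alone (1.32, adjusted p = 0.14). *Osbpl7* was at 0.03 (standard error 0.68), and at 1.53 in the R and RAm libraries (adjusted p = 0.0084). *Retn* (−3.18, adjusted p = 0.00026), *Cfap70* (−2.18, adjusted p = 0.00067) and *Olfr373* (−1.28, adjusted p = 0.049) were lower, and *Gm43684* was at −0.20 (adjusted p = 0.69).

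**Figure D3:**
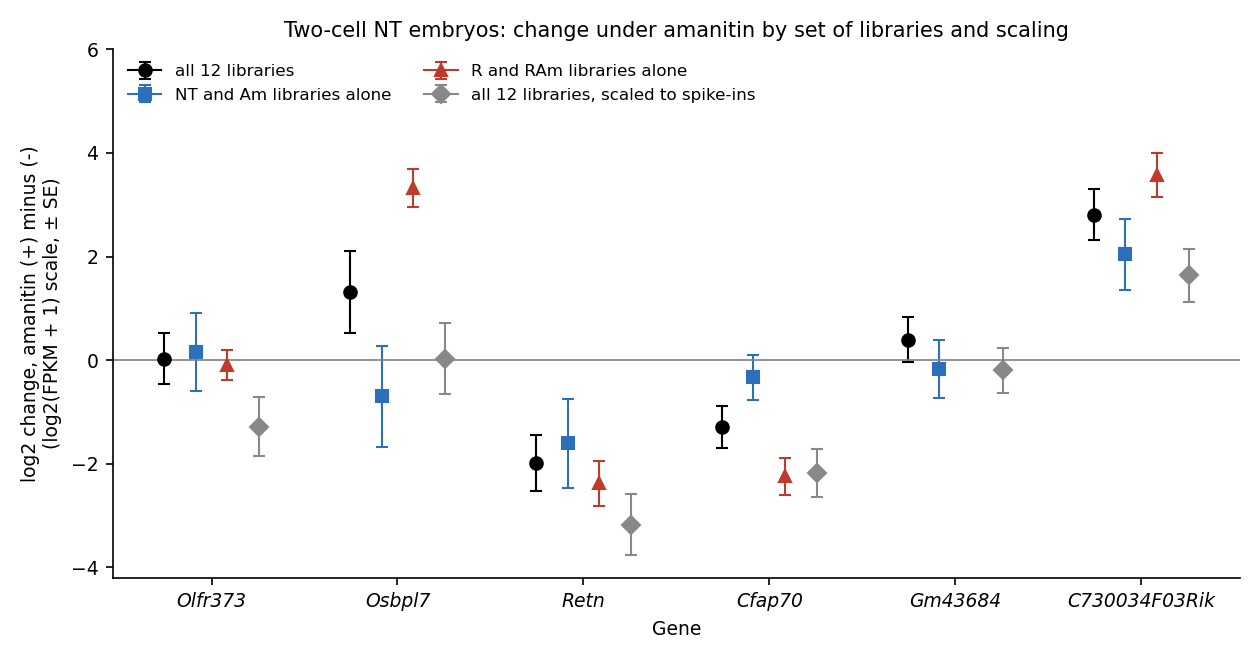
Log2 change under α-amanitin in two-cell NT embryos on the log2(FPKM + 1) scale, with standard errors, for 6 members: all 12 libraries (black), each set alone (blue and red) and all libraries scaled to spike-ins (grey); *Jak3* failed the filter in every fit shown and *Gm43684* in the R and RAm libraries alone. *C730034F03Rik* is above 0 in each fit, *Osbpl7* is at 3.32 in the R and RAm libraries and at −0.69 in the NT and Am libraries, and spike-in scaling shifts every gene downward.

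No library of the replication experiment had α-amanitin, and the choice of members did not use it. None of the 5 members that passed the filter was called between DR and D, as 0 of 14570 genes were (0%, limma on spike-in scaled FPKM, Benjamini-Hochberg adjustment), where 88 genes had an unadjusted p under 0.05. DESeq2 called 1 gene higher and 6 lower, and edgeR 0. Spike-in factors ranged from 0.0937 to 5.60 over 6 libraries, and this spread, with the standard errors of 1.44 to 2.11 for the members, limits the comparison.

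*C730034F03Rik* had 1.65, 2.63 and 1.34 FPKM in DR1 to DR3 and 8.67, 2.69 and 4.68 in D1, D4 and D5. The ranges did not overlap in deposited FPKM, as for 3.99% of genes, though DR2 and D4 were close. The log2 change from D to DR was −2.37 (standard error 1.80, adjusted p = 0.713) after spike-in scaling and −1.06 (unadjusted p = 0.034, adjusted p = 0.79) in deposited FPKM by limma. *Olfr373* had 2.72, 9.10 and 1.34 FPKM in DR and 8.32, 26.8 and 7.23 in D, which differed by −3.09 on the log2 scale (adjusted p = 0.713, standard error 2.05, limma), and by −1.53 in deposited FPKM (adjusted p = 0.79). Under spike-in scaling the median change of all genes was −1.41, against 0.016 in deposited FPKM. *Retn* (−1.69), *Cfap70* (−1.13) and *Osbpl7* (−0.88) had overlapping groups, and their values in deposited FPKM were −0.50, −0.00057 and 0.70. *Gm43684* had at most 1.99 FPKM and *Jak3* at most 0.459.

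**Figure D4:**
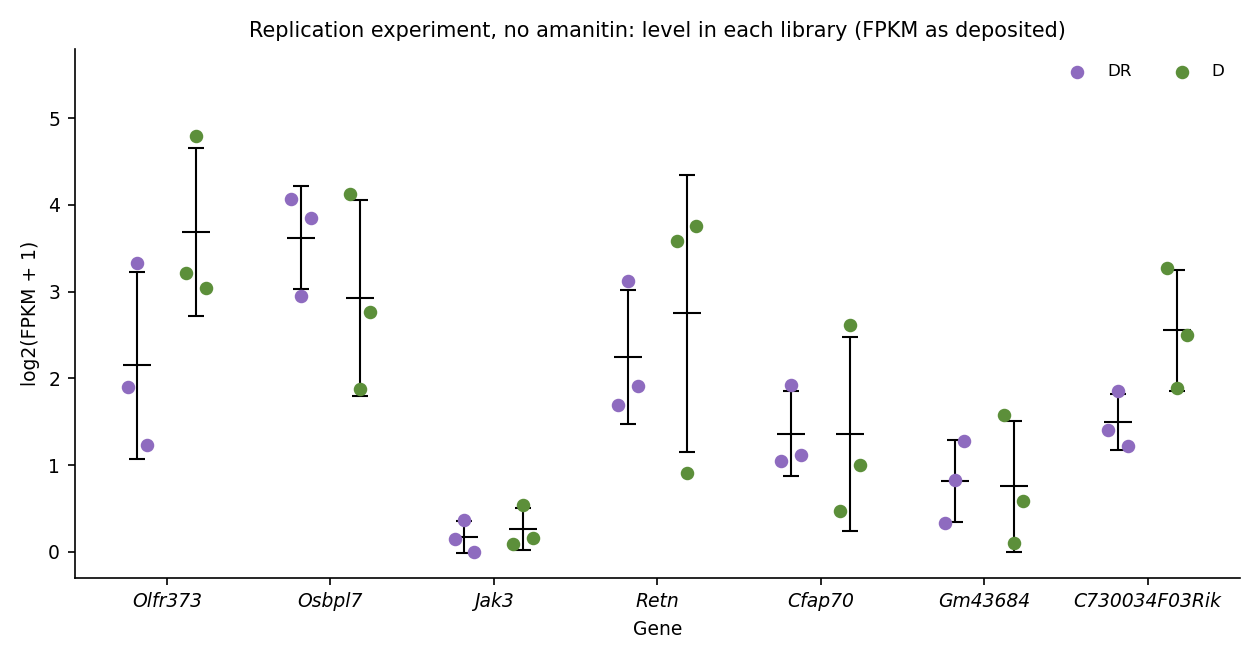
Level of the 7 members in the replication experiment as log2(FPKM + 1) of deposited FPKM, for 3 DR libraries (purple) and 3 D libraries (green); black bars show the mean and SD. *C730034F03Rik* is the only member whose groups do not overlap, and *Jak3* is near 0 in all 6 libraries.

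Across untreated libraries the order of mean FPKM differed between tables, which were counted and normalized separately, so no test was made between them. In the untreated C2C12 libraries *Osbpl7* (12.5 ± 4.66) and *C730034F03Rik* (7.72 ± 6.63) led, and *Jak3* (3.77 ± 0.903), *Retn* (3.04 ± 3.71) and *Olfr373* (1.99 ± 0.741; SD, n = 3) followed, with *Cfap70* and *Gm43684* under 1. The ranges of each pair of neighbours in that order overlapped. In group D, *Olfr373* had the highest mean, 14.1 ± 10.98 FPKM (SD, n = 3), through library D4, and by the median *Retn* (11.02) was above *Olfr373* (8.32). In the untreated two-cell libraries *Osbpl7* had the highest mean in the NT libraries (29.5 ± 11.5) and *Retn* in the R libraries (27.1 ± 14.1; SD, n = 3), where *Osbpl7* had 3.84 ± 1.07. *Jak3* was at 2.86 to 4.67 FPKM in the untreated C2C12 libraries, against 0 to 0.459 in the replication libraries, although these were also untreated four-cell C2C12 NT embryos. Reads were whole in the C2C12 table and in steps of 0.01 in the others, and the part of counting in that gap was not tested.

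The libraries are not stranded, so reads of overlapping genes on opposite strands cannot be told apart. *C730034F03Rik* overlaps the first part of *Chkb*, which had 1.36 to 4.99 FPKM with and 3.19 to 4.46 without α-amanitin in the C2C12 embryos and at most 4.10 in the two-cell embryos. *Gm43684* lies 116 bases from *Camkk2* (at most 0.403 FPKM in the C2C12 libraries) and 1362 bases from *Anapc5*, a subunit gene of the anaphase-promoting complex. *Anapc5* had 42.6 to 84.5 FPKM with and 20.04 to 25.7 without α-amanitin, so it too was higher in every amanitin library. Both face the opposite strand. *Olfr374*, the next receptor gene after *Olfr373*, had at most 0.0994 FPKM in the C2C12 libraries. *Mrpl10*, which ends 1415 bases before *Osbpl7*, overlapped between the groups (25.3 to 51.5 and 34.6 to 45.8 FPKM), as did *Mrps16*, 559 bases beyond the end of *Cfap70* (12.1 to 27.8 and 22.1 to 31.8 FPKM). *Anxa7*, 3034 bases from its start, was above in every amanitin library, at 15.5 to 19.5 and 11.1 to 13.8 FPKM.

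Of the 24 relatives of the members tested in the C2C12 embryos, 1 was higher and 2 were lower at an adjusted p under 0.05, beside 1.13% and 11.1% of all genes. The 2 lower were *Cfap20* and *Socs1*, and *Socs1* passed the filter only through the untreated libraries. Of the 12 genes of the oxysterol-binding protein family, 7 were tested, and the 6 other than *Osbpl7* had values below 0 (*Osbpl8* 0.23 with median-of-ratios scaling), none past an adjusted p of 0.05 (limma), with a median log2 change of −0.81, beside −0.37 over all genes. Examples are *Osbpl9*, at 5.94 ± 3.80 with and 10.3 ± 2.93 without α-amanitin, and *Osbpl8*, at 5.00 ± 0.808 and 5.09 ± 0.415 FPKM (SD, n = 3). In the two-cell embryos 7 others were tested: *Osbpl8* rose (log2 change 0.97, adjusted p = 0.0266), *Osbpl6* (−1.78, adjusted p = 0.0069) and *Osbp* (−1.05, adjusted p = 0.0423) fell, and the median was −0.37, beside −0.67. With spike-in scaling 0 were higher and 5 lower, with *Osbpl8* at −0.38 (adjusted p = 0.41), and with median-of-ratios scaling *Osbp* did not pass (−0.57, adjusted p = 0.25) and the median was 0.40, beside −0.23 over all genes. Among all genes 8.51% rose and 38.9% fell.

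Of the other JAK kinases, which pass cytokine signals to STAT factors, none passed in the C2C12 embryos: *Jak2* had a log2 change of 0.61, *Tyk2* of −0.25 and *Jak1* of −0.61. In the two-cell embryos *Jak2* rose, from 28.2 ± 7.05 to 164 ± 106 FPKM (SD, n = 6; log2 change 2.22, adjusted p = 0.0031, limma), and *Jak1* and *Tyk2* did not pass. With spike-in scaling *Jak2* was at 0.84 (adjusted p = 0.14), while *Jak1* (−1.26, adjusted p = 0.0031) and *Tyk2* (−1.66, adjusted p = 0.0018) were lower, beside a median of −1.49 over all genes. Only 1 of the 8 receptor chains on the list, *Il2rg*, was tested, with changes of 0.42 and 0.71 in the C2C12 and two-cell embryos (adjusted p = 0.62 and 0.20). Of 7 STAT genes, *Stat2* alone was tested in the C2C12 embryos (−0.04, adjusted p = 0.96), and *Stat2*, *Stat3* and *Stat4* in the two-cell embryos, where *Stat2* and *Stat3* did not pass. *Stat4* had 13.7 ± 14.8 FPKM with and 0.0964 ± 0.172 without α-amanitin (SD, n = 6), and since it passed the filter only through the amanitin libraries, its test is not read. Of the 12 inhibitor genes, 6 were tested in the C2C12 embryos with a median of −1.36. *Socs1*, a feedback inhibitor of the JAK kinases, had 3.85 ± 1.67 FPKM without α-amanitin (SD, n = 3) and 0 in every amanitin library, and it too passed the filter only through 1 group, so its test is not read. In the two-cell embryos 11 were tested, of which 4 were lower and 0 higher at an adjusted p under 0.05, a share close to the 38.9% of all genes. Of the 4, *Socs1*, *Socs3* and *Pias4* passed the filter only through the untreated libraries, and *Socs4* was the other. The list had a median of −0.58 that turned to 0.02 with median-of-ratios scaling (all genes −0.67 and −0.23). That scaling gave 1 higher (*Socs6*) and 4 lower, and spike-in scaling 0 higher and 9 lower, beside 71.4% of all genes lower.

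In the resistin family, *Retn* was the only gene tested in the C2C12 embryos, and *Retnlg* joined it in the two-cell embryos. *Retnlg* was at 0 in every amanitin library and at 4.52 ± 8.56 FPKM untreated (SD, n = 6). Since it passed the filter only through the untreated libraries, its test is not read. Of the *Cfap* genes, 6 were tested in the C2C12 embryos. Of the 5 other than *Cfap70*, *Cfap20* fell (29.1 ± 8.35 to 8.07 ± 2.68 FPKM, SD, n = 3, adjusted p = 0.0242, limma) and the others did not pass, with a median of −0.47. In the two-cell embryos, 15 others were tested, of which 3 were higher (*Cfap47*, *Cfap53* and *Cfap97*) and 7 lower, among them *Cfap20* (13.1 to 6.18 FPKM, adjusted p = 0.032, or 0.097 with median-of-ratios scaling), where 8.51% of all genes were higher and 38.9% lower. Of the 7, 3 reached an FPKM of 1 in no amanitin library, and *Cfap47* did so in 1 untreated library, so they passed the filter through the group in which they were high. The median was 0.24, beside −0.67 over all genes, and −0.72 beside −1.49 with spike-in scaling. Median-of-ratios scaling turned the counts to 5 higher and 4 lower, and spike-in scaling gave 1 higher and 7 lower. Olfactory receptor genes were nearly all silent: 94 of 1406 in the C2C12 table had any read and 3 were tested. *Olfr155* was the other that rose, from 2.26 ± 0.782 to 14.5 ± 7.25 FPKM (SD, n = 3, adjusted p = 0.0250, limma), and *Olfr1270* did not pass. *Olfr155* also rose in the two-cell embryos (3.82 to 11.95 FPKM, adjusted p = 0.0205), though not with spike-in scaling (adjusted p = 0.62). Of the 24 other receptors tested there, *Olfr155* included, 3 were higher and 6 lower, again beside 8.51% and 38.9% of all genes, and 1 and 3 of these reached an FPKM of 1 in no library of the lower group. The receptors had a median of −0.31 (all genes −0.67) and of 0.13 with median-of-ratios scaling (all genes −0.23). With spike-in scaling 2 of them were higher and 11 lower.

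The members did not follow a single pattern over the 24 libraries of the 3 tables. Pearson's r of log2(FPKM + 1), centred within each table, ranged from −0.17 to 0.70 over the 21 pairs of members (median 0.445). These points share their library, and the C2C12 libraries chose the members, so the values are a description. *Jak3* and *Gm43684* failed the filter on low values in at least 1 table. The genes most like each member, among 9103 that passed the filter in every table, were *Gm13588* and *Coq6* for *Olfr373* (r = 0.64 for both), *Gm26815* and *Gm42646* for *Osbpl7* (0.78 and 0.77), and *Gm32899* and *Dhx30* for *Jak3* (0.78 and 0.74). For *Retn* they were *Gm16082* and *Nmral1* (0.72 for both), for *Cfap70* *Sms-ps* and *Med14* (0.88 and 0.85), for *Gm43684* *Gm27010* and *Olfr155* (0.74 and 0.72), and for *C730034F03Rik* *Gm26737* and *Best4-ps* (0.88 and 0.83).

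Of the 199 tested genes that met the condition in reads in the C2C12 embryos, 165 were also tested in the two-cell embryos. There 29 were higher and 35 lower at an adjusted p under 0.05 (limma), with a median log2 change of −0.22. Of the 9160 other genes tested in both tables, 511 were higher and 4314 lower, with a median of −0.94.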

How the data were processed

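RNA-seq libraries were made from pooled NT embryos with SMART-seq v4 and Nextera XT kits, which do not mark strand. Per the submitters' notes and the methods, the authors trimmed reads (Trimmomatic, Trim Galore, cutadapt), mapped them to mm10 with STAR and deposited FPKM. featureCounts is among the tools named, and versions are not given in the sources used here. FPKM times gene length gave whole reads for 100% of C2C12 values, but steps of 0.01 read in the replication and two-cell tables (40.1% to 50.4% whole), where reads are approximate. The oryx table was not used for the members, since its identifiers carry no gene names. It holds a signal per library, which the authors deposited as counts divided by size factors, and the authors' own log2 changes, standard errors, Wald statistics, p-values and adjusted p-values, which were not used. A further 4 per-library columns, whose names match no label, were not used.

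Groups came from the labels. Library numbers in the two-cell table did not pair the samples. The 6 two-cell columns named Am or RAm are the only ones with that mark, and they fill the 6 samples labelled as treated, so the R columns are untreated. C2C12 column numbers are not those of the labels.

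Members and gene lists were chosen with earlier results of these data known. log2(FPKM + 1) was fitted with limma 3.58.1 (mean-variance trend, R 4.3.3) over genes that reached an FPKM of 1 in 3 or more libraries, with Benjamini-Hochberg adjustment over all of them, and a call needed an adjusted p under 0.05 and a 4-fold change. The change is amanitin minus untreated, or DR minus D, and the pseudocount of 1 shrinks changes of low genes. In the replication table, the 19 ERCC spike-ins present in all 6 libraries set the scale. edgeR 4.0.16 and DESeq2 1.42.0, on rounded reads, were alternatives. The unscaled limma contrast was run on simulated reads of each experiment. The scaled, single-set, interaction, edgeR and DESeq2 fits had no such run. Single members in the two-cell table also had an exact permutation test. Other alternatives were pseudocount, filter, scaling and leaving out each library. The rule for named genes was all 7 members, the fixed family lists and the 2 genes with the highest r to each member. Genes of the fixed marker lists, annotated neighbours and the genes next to the limit of the choice were also named. Python 3.11.15 with pandas 2.3.3 made the summaries. Reads without molecular identifiers are not independent molecules, and limits cover counting error only. The labels call samples replicates without naming separate cultures, although the methods speak of biological replicates. Early and late recipients were not compared, since no column name gives the stage.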

Additional observations from a re-analysis of the deposited data

Results flagged for a closer look

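In the two-cell embryos, library Am1 had 24.8 FPKM of *Retn*, far above the other amanitin libraries (0.849 to 4.91 FPKM). Among 14 groups of 6 libraries tested, with both sets pooled, this was the only such extreme. Chance gives one in about 1 group of 20, so 1 among 14 groups is near what chance gives.

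The change under α-amanitin differed between the 2 sets of two-cell libraries for *Osbpl7*, by 4.02 on the log2 scale, and for *Cfap70*, by −1.92, with the R and RAm libraries the farther from 0 in both (limma interaction, adjusted p = 0.0147 and 0.0174). Among all genes tested, 44.5% passed the same test.

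*Jak3*, *Retn* and *Cfap70* were above the untreated range in every amanitin library of the C2C12 embryos and below it in every amanitin library of the R set, where the ratio of mean FPKM was 0.0903, 0.145 and 0.0886. Among all genes tested, 58.1% lay below in the R set in the same way, and the *Jak3* values there rest on 0.12 to 14.5 reads. The difference between the experiments was not tested, since the tables were normalized separately, and the C2C12 side was fixed by the choice of members.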

How the results depend on the processing

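With 3 libraries per group, as few as 0 to 9 reads in the lowest untreated library of 5 members and no spike-ins in the C2C12 table, ratios of low members there are imprecise.

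For the C2C12 embryos, 36 genes were called higher and 613 lower under α-amanitin. Without a filter the counts were 5 and 259, DESeq2 called 98 higher and edgeR 394 lower, and leaving out each library gave 5 to 53 higher (fewest without S17 or S7) and 55 to 836 lower (fewest without S7). For the two-cell embryos, 272 were called higher and 1906 lower. The counts were 639 and 4411 with a pseudocount of 0.1, 749 and 851 with median-of-ratios scaling, 1774 and 837 with edgeR, 28 and 5851 with spike-in scaling, and 2816 higher with DESeq2. Leaving out each library gave 182 to 380 higher and 1367 to 2472 lower. In alternatives chosen after seeing the data, the NT and Am libraries alone gave 70 and 470 (24 higher with spike-in scaling), and the R and RAm libraries alone 888 and 4747 (166 and 8935 with spike-in scaling). In the replication experiment, 0 genes were called in either direction, and DESeq2 called 1 and 6.

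Library numbers did not pair the two-cell samples (r of the deviations 0.015 to 0.065), and with the replicate block 273 genes were called higher and 1878 lower. No paired fit was made for the C2C12 and replication experiments, whose columns do not carry the replicate numbers of the labels in both groups.

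Some two-cell values turned sign. *Olfr373* (0.03) was at −1.28 with spike-in scaling, −0.10 in the R and RAm libraries, −0.58 and −1.96 in the NT and R sets with spike-in scaling, and −0.41 to 0.24 with each library left out. *Osbpl7* was at −0.69 in the NT and Am libraries and −1.48 there with spike-in scaling. *Gm43684* was at −0.20 with spike-in scaling, −0.17 in the NT and Am libraries and −0.71 with both. In the replication experiment, *Osbpl7* (−0.88) was at 0.65 with median-of-ratios scaling, 0.45 with edgeR, 0.47 with DESeq2, 0.70 in deposited FPKM and −2.21 to 0.96 with each library left out. The causes were not tested. The planned comparison of early with late recipients was not run, since the columns do not give the stage.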
